A study of Sus scrofa with 3 samples.

Results

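Cytokines are secreted or membrane-bound signalling proteins, and cells read them through matching receptors. The genes described here are interleukins, ligands and receptors of the tumour necrosis factor (TNF) family, colony-stimulating factors, transforming growth factor beta (TGF-beta) genes and chemokine receptors, in the lungs of minipigs after transient closure of the left pulmonary artery. They were chosen by gene symbol from the array's platform annotation, leaving out IL18, TNFRSF17 and CXCR4, which gave 66 probe sets of 10069 with 1 gene symbol, and 51 genes of 6765. By role these were 26 ligands, 24 receptors and 1 secreted binding protein, IL18BP, which captures interleukin 18.

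Lung tissue RNA was measured on 3 Affymetrix porcine arrays. One array held lung from a sham minipig. The others held lung from minipigs with ischemia-reperfusion, in which surgery occluded the left pulmonary artery transiently and spared the bronchus, so that air still reached a lung whose arterial flow was cut off. The left lung is called operated and the right lung non-operated. All minipigs were kept in specific pathogen-free conditions. The sources used here do not give their age, sex or breed, the times of occlusion and reperfusion, whether both lungs came from 1 animal, or whether RNA was pooled. With 1 array per group the differences have no replicate check, and no p-value is given. Fewer cells of a type and less RNA per cell cannot be told apart in bulk tissue.

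Most interleukins act over short distances through a pair or a trio of receptor chains that activate Janus kinases (JAK) and the transcription factors called STAT. TNF receptors recruit adaptor proteins that lead to the transcription factor NF-kB or to cell death, and TGF-beta receptors are kinases that activate SMAD proteins. In the lung, IL-1 beta, TNF and IL-6 are known as early signals of injury, IL-10 as a restraint on macrophages, and TGF-beta as a regulator of repair. All values are log2 signals, where a difference of 1 is a 2-fold difference. Each array's median over all probe sets served as its floor, at 7.33 in the sham lung and 7.31 in each of the others. For ratios, signals at or below it were set to the floor, and a ratio against such a value is a lower bound. A bound under 2-fold does not show that a gene lay within 2-fold. Signals of different genes come from different probes and are not compared with each other.

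Of the 51 genes, 22 lay above the floor on all 3 arrays, 5 on 1 or 2 arrays and 24 on none. The share on none was 47.1%, against 23.7% of all named genes. It was 14 of 26 ligands (53.8%) and 10 of 24 receptors (41.7%).

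**Figure D1:**
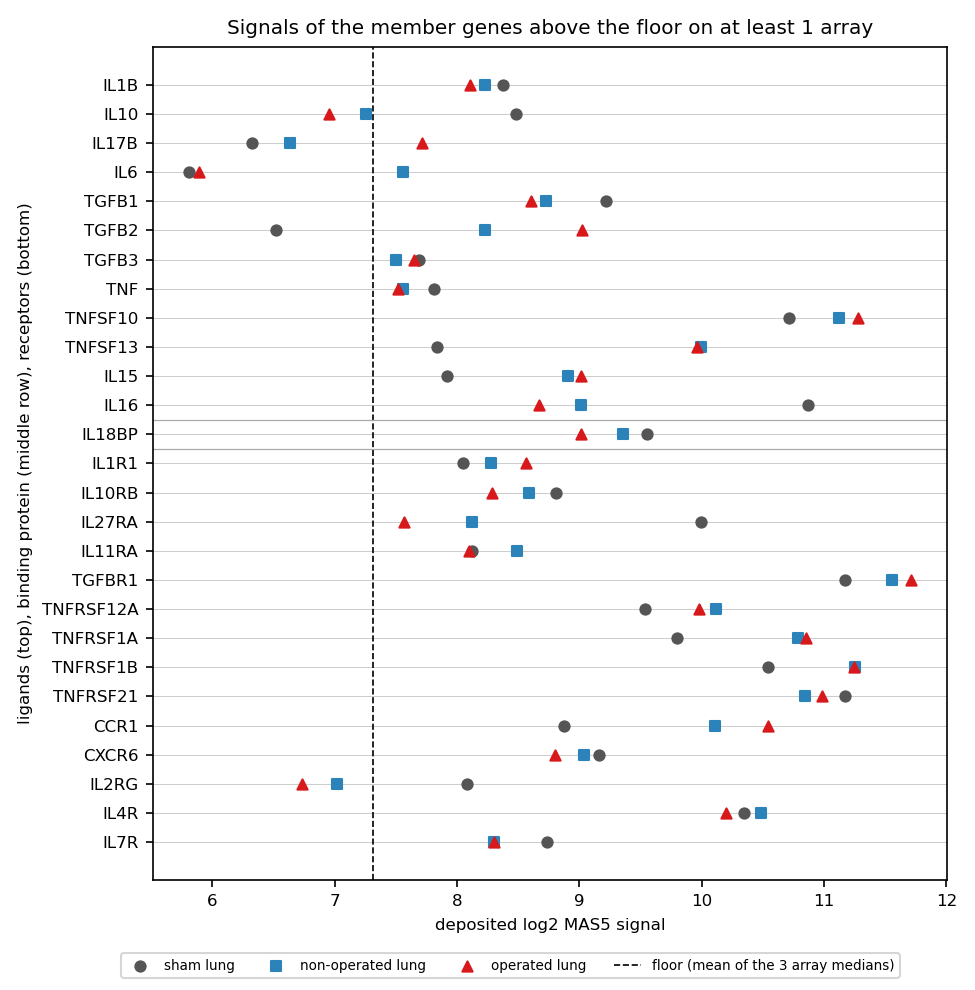
Deposited log2 signal of the 27 member genes above the floor on at least 1 array, with ligands at the top, the binding protein IL18BP between grey lines and receptors at the bottom; each point is 1 array and the dashed line is the mean of the 3 floors. For most genes the operated and non-operated points lie close together, and IL16, IL27RA, TNFSF13 and CCR1 show the sham point well apart from both.

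In the operated lung, 5 of the 26 genes that could be compared with sham were at least 2-fold higher, namely TNFSF13, TGFB2, CCR1, IL15 and TNFRSF1A. Another 3, IL27RA, IL16 and IL10, were at least 2-fold lower. Over all 5097 named genes compared, 8.65% were higher and 8.79% lower by this measure, against 19.2% and 11.5% of the members. In the non-operated lung, TNFSF13 and CCR1 were at least 2-fold higher and IL27RA, IL16 and IL10 lower, which is 7.69% and 11.5% of 26 members against 8.96% and 8.55% of 5113 named genes. Both comparisons use the same sham array, so they are not independent. The median log2 ratio of the members was -0.10 in the operated and 0.00 in the non-operated lung, beside -0.11 and -0.10 over all named genes. Centring each array on its median, or adding a pseudocount, brought the count of higher members in the non-operated lung from 2 to 4, and averaging all probe sets of a gene brought it to 1 and that in the operated lung from 5 to 3.

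Between the operated and the non-operated lung, 0 of 25 members had a ratio or bound of 2-fold. The background was also low, at 0.243% in either direction, with 0.0607% of 4944 named genes higher in the operated lung and 0.182% lower. The members ran from -0.56 for IL27RA to 0.79 for TGFB2. Their median absolute log2 ratio was 0.16, beside 0.15 over all named genes. Against sham the median absolute ratio of the members was 0.54 in the operated and 0.42 in the non-operated lung, beside 0.44 and 0.45 over all named genes.

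**Figure D2:**
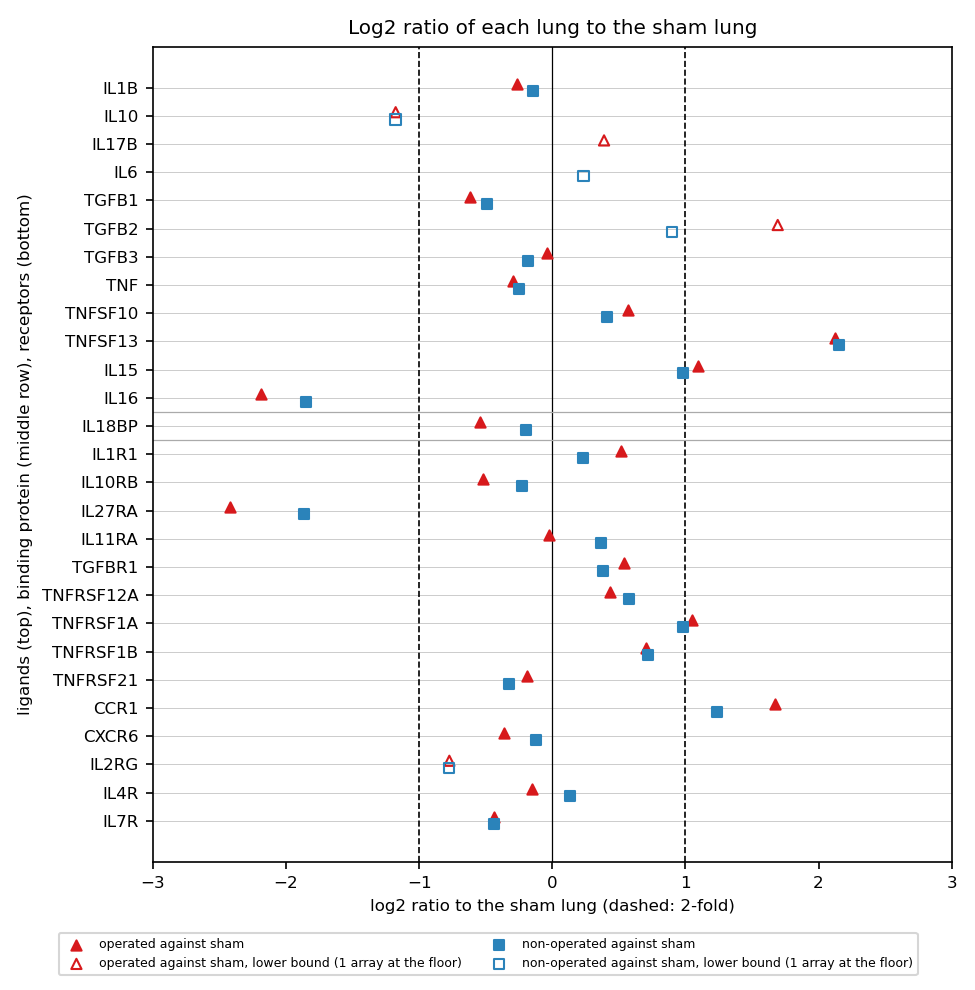
Log2 ratio of the operated lung (triangles) and the non-operated lung (squares) to the sham lung for the same genes, with open symbols for lower bounds where 1 array was at the floor, and no symbol where both arrays were at it. TNFSF13 lies near 2 in both lungs and IL16 and IL27RA between -2.42 and -1.85, and the dashed lines mark 2-fold.

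Among the ligands, TNFSF13 encodes APRIL, a TNF family ligand that sustains plasma cells. Its log2 signal was 7.84 in sham, 9.99 in the non-operated and 9.96 in the operated lung. It was 4.45-fold higher in the non-operated and 4.37-fold higher in the operated lung, and these signals differed from each other by 0.03. A further probe set for the gene stayed below the floor on all arrays, at 3.15, 3.68 and 5.79. With both probe sets averaged, the sham value lay below the floor and the bound for the operated lung was 0.55, while the averaged difference as deposited was 2.38.

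TGFB2, one of the TGF-beta ligands, had a log2 signal of 6.52 in sham, below the floor, 8.23 in the non-operated and 9.02 in the operated lung. The operated lung was at least 3.23-fold and the non-operated lung at least 1.86-fold above sham. Sham was the lowest array for each of the gene's 4 probe sets, with log2 differences as deposited of 1.38 to 2.50 for the operated and 0.95 to 1.83 for the non-operated lung. When the probe sets were averaged, the sham value lay below the floor and the bound for the operated lung was 0.13, while the averaged difference as deposited was 1.73. The related ligands lay within 2-fold by their brightest probe sets. TGFB1 stood at 9.22, 8.73 and 8.61 in sham, non-operated and operated lung, a ratio of -0.62 for the operated lung, while its further probe set gave 0.06. TGFB3 stood at 7.69, 7.51 and 7.65. Its further probe set was below the floor on all arrays, at 4.78, 5.85 and 5.90. The differences of that set from sham as deposited were 1.07 for the non-operated and 1.12 for the operated lung.

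IL15, which supports natural killer cells and memory T cells, had log2 signals of 7.92 in sham, 8.91 in the non-operated and 9.01 in the operated lung. Sham was the lowest array, and the ratios were 1.09 for the operated lung, just past 2-fold, and 0.99 for the non-operated lung, just short of it. With a pseudocount the operated ratio was 0.95.

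IL16, a ligand of CD4 that attracts T cells, was the ligand with the largest lower ratio. Its log2 signal was 10.87 in sham, 9.02 in the non-operated and 8.68 in the operated lung, so that it was 3.60-fold lower in the non-operated and 4.57-fold lower in the operated lung. It stayed at least 2-fold lower in both lungs under each of the 8 alternatives that gave it a value as a gene. IL10, the cytokine that restrains macrophage activation, stood at 8.49 in sham and at 7.26 and 6.95 in the non-operated and operated lung, both below the floor. That made it at least 2.26-fold lower in either lung.

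Of the ligands best known for acute inflammation, TNF and IL1B lay within 2-fold of sham by their brightest probe sets, and IL6 was at the floor in sham. TNF stood at 7.81 in sham, 7.56 in the non-operated and 7.52 in the operated lung. IL1B stood at 8.37, 8.23 and 8.11 in the same order, with ratios of -0.15 for the non-operated and -0.27 for the operated lung. A further IL1B probe set had the opposite sign, at 6.13, 7.09 and 7.46, just above the floor in the operated lung alone. Its differences from sham as deposited were 0.95 for the non-operated and 1.33 for the operated lung. IL6 exceeded the floor in the non-operated lung alone, at 7.56, against 5.81 in sham and 5.89 in the operated lung. Its bounds were 0.23 for the non-operated lung against sham and -0.25 for the operated against the non-operated lung, and the differences as deposited were 1.75 and -1.67. Without a floor, with a floor at the 25th percentile or with a pseudocount, IL6 was at least 2-fold higher in the non-operated lung than in sham. TNFSF10, the death ligand TRAIL, stood at 10.71, 11.12 and 11.28, with ratios of 0.41 for the non-operated and 0.57 for the operated lung. IL17B, a member of the IL-17 family, exceeded the floor in the operated lung alone, at 7.72, and its 3 probe sets disagreed, with deposited differences from sham of -0.49 to 2.66.

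Among the receptors, CCR1, through which monocytes and neutrophils follow inflammatory chemokines, stood at 8.87 in sham, 10.11 in the non-operated and 10.54 in the operated lung. It was 2.35-fold higher in the non-operated and 3.19-fold higher in the operated lung. With a floor at the 75th percentile, which lay above the sham signal, the non-operated lung had a bound of 0.86. CXCR6, a chemokine receptor of T cells and natural killer cells, lay within 2-fold at 9.17, 9.04 and 8.80.

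TNFRSF1A, the main death-domain receptor of TNF, had log2 signals of 9.80 in sham, 10.79 in the non-operated and 10.85 in the operated lung. The ratios were 1.05 for the operated lung and 0.98 for the non-operated lung, on either side of the threshold and 0.07 apart. TNFRSF1B, the other TNF receptor, stood at 10.54, 11.26 and 11.25, with ratios of 0.72 for the non-operated and 0.71 for the operated lung. TNFRSF12A, which binds the ligand TWEAK, had ratios of 0.57 and 0.44, and the ratios of its 2 probe sets differed by at most 0.12. TNFRSF21, a death-domain receptor also called DR6, stood at -0.32 and -0.19. Of the 7 TNF family genes chosen by symbol and compared with sham, 2 in the operated and 1 in the non-operated lung were at least 2-fold higher. Of the 7, 0 were lower, beside the 8.65% to 8.96% higher and 8.55% to 8.79% lower over all named genes. In each lung 5 of the 7 were above 0, with a median ratio of 0.57. Over all named genes, 2158 of 5097 and 2221 of 5113 were above 0 and the medians were -0.11 and -0.10. The 3 TNF family genes under other symbols that were compared, LTB, CD40 and FAS, were all below 0 in each lung.

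IL27RA, a receptor chain for the IL-12 family cytokine IL-27 found on T cells and natural killer cells, had the largest lower ratio of the receptors. Its log2 signal was 9.99 in sham, 8.13 in the non-operated and 7.57 in the operated lung. It was 3.64-fold lower in the non-operated and 5.36-fold lower in the operated lung, where it came near the floor. With a floor at the 75th percentile the bounds were -0.77 in either lung.

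IL2RG, the common gamma chain that IL-15 shares with IL-2, IL-4 and IL-7, stood at 8.08 in sham and below the floor, at 7.02 and 6.74, in the non-operated and operated lung. Its bound of at least 1.71-fold lower in either lung did not reach the threshold. The deposited signals of the operated lung and sham differed by -1.35. IL7R, a receptor chain for IL-7 found on T cells, stood at 8.74, 8.30 and 8.30, a ratio of -0.44 in both lungs. IL4R, the receptor chain for IL-4 and IL-13, stood at 10.35, 10.48 and 10.20. IL10RB, a chain of the IL-10 receptor, had ratios of -0.23 for the non-operated and -0.52 for the operated lung, beside the lower signal of its ligand. IL1R1, the signalling receptor for IL-1, had ratios of 0.23 and 0.52, and IL11RA, the IL-11 receptor chain, 0.37 and -0.03. TGFBR1, the signalling kinase for TGFB2, stood at 11.18, 11.56 and 11.71, with ratios of 0.38 and 0.54. TGFBR3, the co-receptor that presents TGFB2, was below the floor on all arrays, at 2.44, 2.33 and 4.85. IL18BP stood at 9.56, 9.36 and 9.01, with ratios of -0.19 and -0.54.

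Set side by side, 5 of 11 ligands and 3 of 14 receptors were at least 2-fold from sham in the operated lung, where 17.4% of all named genes were. In the non-operated lung these were 3 of 11 ligands and 2 of 14 receptors, beside 17.5% of all named genes. Both classes had members on either side. The ligands' median ratio was -0.04 in the operated and -0.15 in the non-operated lung, and the receptors' -0.09 and 0.18. The difference between ligands and receptors was not tested. Without a floor, when all 51 genes were counted, 10 of 26 ligands and 9 of 24 receptors were past 2-fold in the operated lung, beside 24% of all named genes without a floor.

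The 24 genes at or below the floor on all arrays have no ratio here. The ligands among them were CSF2, CSF3, IL1A, IL2, IL4, IL5, IL7, IL12A, IL12B, IL13, IL17A, IL21, IL34 and TNFSF4. They include the growth factors of granulocytes and macrophages, the T helper cell cytokines IL4, IL5, IL13 and IL17A, and the alarm cytokine IL1A. The receptors were CCR2, CCR3, CCR7, CCR9, IL2RA, IL6R, IL12RB2, IL13RA1, IL18R1 and TGFBR3. Their log2 signals ran from 0.00 to 7.17. The deposited differences in this range were wide, from -3.11 for CCR7 to 2.41 for TGFBR3 in the operated lung against sham. IL12A stood at 5.58 in sham, 1.82 in the non-operated and 5.16 in the operated lung, a difference of 3.34 between the last pair. Chosen after its values were seen, IL1A had 2 probe sets that both gave differences from sham of 1.02 to 1.27 in either lung, with the brighter set at 6.01, 7.02 and 7.10, below the floor.

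Genes with several probe sets give the only internal measure of error, which covers differences between probes on the same arrays and not between animals. There were 11 such members. All probe sets of a gene had the same sign in 7 of the 11 against sham, in either lung, and in 4 of 11 between the lungs. The median spread between the highest and lowest probe set was 0.52 for the operated lung against sham, 0.87 for the non-operated lung against sham and 0.50 between the lungs. The widest, 3.57, was for IL17B.

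**Figure D3:**
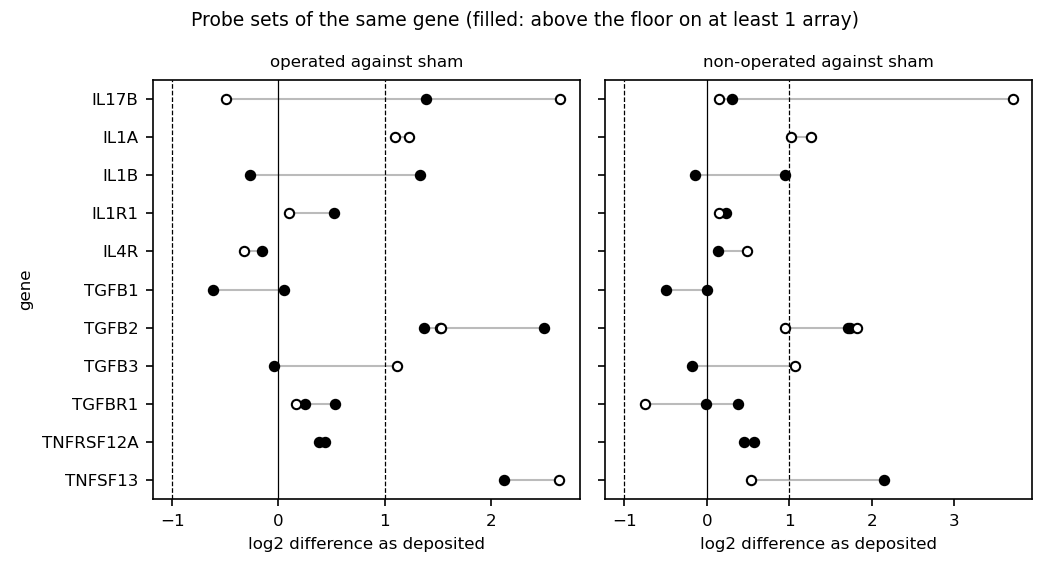
Log2 difference from sham as deposited for each probe set of the 11 members with several, with filled points above the floor on at least 1 array and open points at or below it on all. All TGFB2 points lie to the right of 0.9, while IL1B and TGFB3 have points on both sides of 0.

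Lists of genes that carry the signals onward had 0 or 1 gene past 2-fold against sham in each lung, where 17.4% and 17.5% of all named genes were. Of the IL-1 and Toll pathway adaptors, 0 of 5 compared were past 2-fold against sham in either lung. TOLLIP, an inhibitor of this pathway, was at 0.97 in both lungs. Of 10 TNF receptor adaptor and NF-kB genes, 1 was past 2-fold, CASP8, the initiating caspase of death receptors, at -1.02 in the non-operated and -0.87 in the operated lung. NFKBIA, the NF-kB inhibitor that NF-kB itself induces, was at 0.72 and 0.75. Of the JAK, STAT and SOCS genes, 1 of 16 was higher in the operated lung, SOCS6, a suppressor of cytokine signalling, at 1.02, and 0 of 15 were past 2-fold in the non-operated lung. STAT3, which acts downstream of IL-6 and IL-10, was at 0.48 in both lungs. STAT4, which acts downstream of IL-12, was at -0.87 in the non-operated lung and below the floor in the operated lung, where its bound was -0.94 and its difference as deposited -1.04. The TGF-beta pathway list had a median of 0.30 over 12 genes in the operated and 0.31 over 11 in the non-operated lung, with 10 above 0 in each, beside 2158 of 5097 and 2221 of 5113 named genes. Below 0 were PMEPA1, at -0.10 in the operated and -0.30 in the non-operated lung, and DCN, at -0.15 in the operated lung. In this list, only ID1 was past 2-fold, at 1.07 in the operated and 1.82 in the non-operated lung. ID1 is a transcriptional inhibitor best known as a target of bone morphogenetic proteins.

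TNF family genes that carry other symbols lay on the lower side. LTB, the lymphotoxin beta gene active in lymphoid tissue, stood at 11.96 in sham, 8.30 in the non-operated and 8.25 in the operated lung. CD40, a TNF receptor family member of B cells and macrophages, had ratios of -1.32 and -0.85. FAS, a death receptor, had a bound of -0.21 in both lungs. CD27, CD40LG, FASLG and LTA were at the floor on all arrays. So were LEP, LEPR and LIF, the 3 measured genes of a list of IL-6-type cytokines and related ligands and receptors outside the symbol rule.

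**Figure D4:**
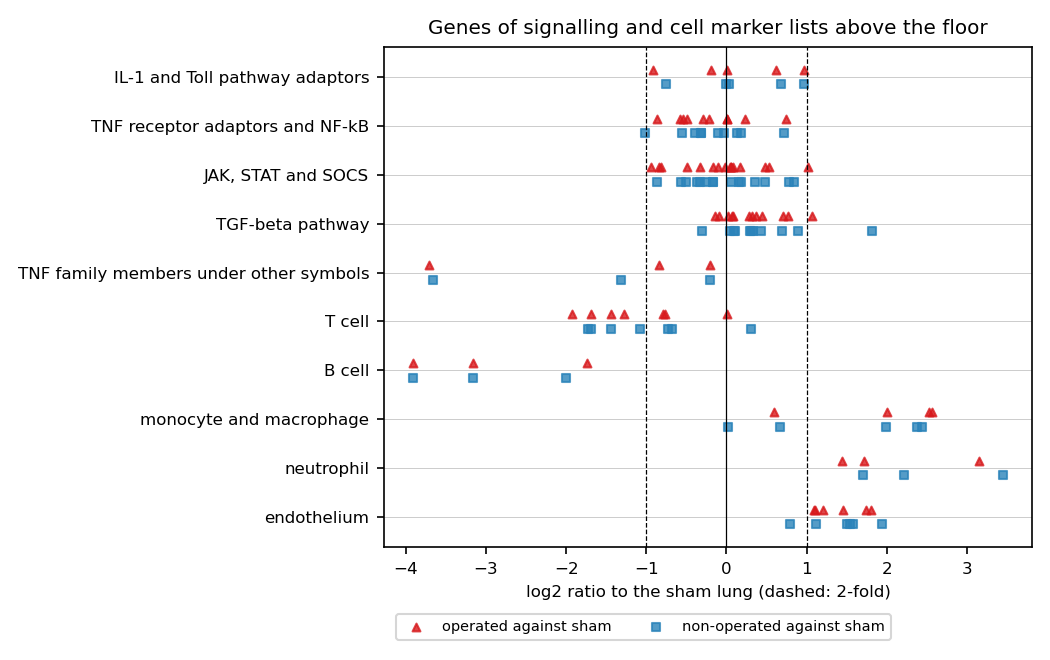
Log2 ratios to the sham lung for the genes of signalling and cell marker lists that could be compared, with triangles for the operated and squares for the non-operated lung and dashed lines at 2-fold. Most signalling genes lie within 2-fold, while ID1 of the TGF-beta list lies above it in both lungs. LTB, of the TNF family genes under other symbols, lies near -3.7 in both lungs. All B cell markers and all T cell markers but 1 lie below 0, and the monocyte, neutrophil and endothelial markers lie above 0.

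Many markers of immune and endothelial cells differed from sham in both lungs. Over all named genes, 8.65% to 8.96% were at least 2-fold higher and 8.55% to 8.79% lower. Beside the lower IL16, IL27RA and IL10, 4 of 7 T cell markers compared were at least 2-fold lower in each lung, with 0 higher. CD3E and CD8A were lower but within 2-fold, and CD8B was higher, with bounds of 0.31 in the non-operated and 0.01 in the operated lung. The linear signals of the T cell list summed to 5100 in sham, 2418 in the non-operated and 2293 in the operated lung, and CD4 was at the floor on all arrays. LCK, a kinase of the T-cell receptor, was at -1.70 in the non-operated and -1.93 in the operated lung. All 3 B cell markers measured, BLNK, CD79B and SPIB, were lower in each lung, with summed signals of 8096, 1274 and 1506. Beside the higher CCR1, TNFRSF1A, TNFSF13 and IL15, 3 of 4 monocyte and macrophage markers were higher in the operated and 3 of 5 in the non-operated lung. Their signals summed to 5095 in sham, 17706 in the non-operated and 18217 in the operated lung, while CD14 and FCGR1A were at the floor. The 3 genes of the neutrophil list above the floor were S100A8, S100A9 and S100A12, calgranulin genes of neutrophils and monocytes, and all were higher. The list summed to 1122 in sham, 8380 in the non-operated and 6827 in the operated lung. Most of this was S100A9, at 598, 6520 and 5340, and ELANE and LTF were at the floor. Beside the higher TGFB2, 6 of 6 endothelial markers were higher in the operated and 5 of 6 in the non-operated lung, with sums of 5310, 13952 and 13347 and with FLT1, KDR and TIE1 at the floor. Which cells expressed each member was not measured, and the part of these cell types in the cytokine results was not tested.

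The 4 alveolar type 2 markers measured lay above the floor on each array. Their linear signals summed to 31579 in sham, 36950 in the non-operated and 40180 in the operated lung. Most of each sum was SFTPC, at 22200, 24100 and 23400. Of the 4 markers, SFTPB and SLC34A2 were higher in the operated lung against sham, at 1.23 and 1.29, and stood at 0.11 and 0.95 in the non-operated lung. SFTPB was 2.18-fold higher in the operated than in the non-operated lung. TFF3, the 1 airway marker measured, stood at 0.52 in the non-operated and 1.07 in the operated lung. MS4A2, the 1 mast cell marker above the floor, was at 1.80 in the non-operated and 1.06 in the operated lung. In the same order, the platelet chemokine PPBP had bounds of 4.08 and 3.86, while the platelet genes GP9 and ITGA2B were at the floor. The red cell enzyme gene ALAS2 had bounds of 1.21 and 1.11, while the hemoglobin gene HBB lay within 2-fold, at 0.25 and 0.69.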

How the data were processed

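Per the labels' protocols, lung RNA was extracted with TRIZOL, then amplified with a kit for in vitro transcription from the 3' end to give biotin-labelled cRNA. The deposited table holds 1 log2 value per probe set and array, the scale being read from the values. Per the submitters' processing notes they come from MAS5, which treats arrays separately and summarises each probe set as 1 signal. The sources used here do not give its version or scaling target. The table had 0 further value columns.

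Of 23999 probe sets, 64 reporter controls were left out. The platform annotation named 1 gene for 10069 probe sets, several for 198 and none for 13668. By gene identifier, all 51 member genes were found in RefSeq's pig gene table (assembly Sscrofa11.1). The probe set with the highest mean signal over the 3 arrays stood for a gene. The floor was each array's median (50th percentile). A gene entered a comparison when 1 or both arrays exceeded the floor, and lower values were set to it. Ratios are differences of log2 values, called at 2-fold. With 1 array per group no test was possible. Members, role lists and marker lists were chosen with earlier results of these data known. Every member at least 2-fold from another array was named, with its partners, the brightest of each class and members whose probe sets disagreed. Of each further list, up to 4 genes past 2-fold were to be named. The 9 alternatives cover scaling, floor, pseudocount, filter and probe sets. The code for the calls was run on simulated arrays with set differences and no noise. That run checks the calculation only and says nothing about error with 1 array per group. Python 3.11.15, pandas 2.3.3 and numpy 2.4.6 were used. No probe, promoter or protein sequences were used here.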

Additional observations from a re-analysis of the deposited data

How the results depend on the processing

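No paired analysis was possible because each group is 1 array. No gene past 2-fold changed direction in the 7 or 8 of 9 alternatives that gave it a value of its own. Quantile normalization, the filter on the mean over 3 arrays and counting each probe set kept all counts of members within 1.5 times of those reported. Members are to be read beside the share of all named genes under the same setting. With median centring, 4 members were higher in the non-operated lung, IL15 and TNFRSF1A joining TNFSF13 and CCR1 (9.21% of all genes). With no floor, 10 members were higher and 9 lower in the operated lung, 5 and 12 in the non-operated lung, and 6 and 3 in the operated against the non-operated lung; the ligands and receptors past 2-fold were then 10 and 9, 12 and 5, and 6 and 3. Of all named genes, 11% were then higher and 13% lower in the operated lung, 12% and 12.5% in the non-operated lung, and 3.41% and 4.72% between the lungs. With a floor at the 25th percentile these counts were 8 higher and 5 lower in the operated lung, 5 and 7 in the non-operated lung, and 2 and 1 between the lungs, with 6 receptors past 2-fold in the operated lung, 8 ligands and 4 receptors in the non-operated lung, and 2 ligands and 1 receptor between the lungs; of all named genes 19.1%, 19.4% and 1.79% were past 2-fold. With a floor at the 75th percentile, which left 12 members, 2 were higher and 1 lower in the operated lung, 0 and 1 in the non-operated lung, with 1 ligand past 2-fold in either lung and 0 receptors in the non-operated lung, beside 13.1% and 13.4% of all named genes. With a pseudocount of 50 on the linear signal, 4 members were higher and 5 ligands past 2-fold in the non-operated lung, and 1 member, the ligand IL6, was lower in the operated against the non-operated lung (8.78% and 0.202% of all named genes). With the mean of all probe sets, 3 members were higher and 3 ligands past 2-fold in the operated lung, and 1 member was higher in the non-operated lung (7.77% and 7.97% of all named genes higher). Lower floors count more genes of low signal, and the averaged sham values of TNFSF13 and TGFB2 fell below the floor. The number of arrays, 1 per group, limits the precision.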
